A study of Mus musculus with 9 samples.

Results

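The endoplasmic reticulum (ER) stress and integrated stress response genes examined here were Atf4, Ddit3, Ddit4, Hspa5, Xbp1, Trib3, Chac1, Asns, Atf5 and Ppp1r15a. They are 10 of the 23997 gene symbols measured and were chosen by symbol, as effectors and targets of 2 linked pathways. All 10 had a row in each of the 9 libraries, and all 10 passed the filter on low values (a mean of at least 0.5 scaled FPKM), which left 13043 genes for testing. FPKM (sequenced fragments relative to transcript length in kilobases and to all mapped fragments) was summed over loci with the same symbol and scaled between libraries.

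The libraries were made from retinal ganglion cells (RGCs), the neurons whose axons form the optic nerve, of wild-type C57BL/6J mice. The anterior chamber received saline (Control) or microbeads, which raise the intraocular pressure (IOP), and the microbead eyes were divided by the size of the rise into Mild IOP and Moderate IOP. Injection was at 6 weeks of age and the cells were collected 2 weeks later, at 8 weeks, by immunopanning on Thy1.2 with actinomycin D, an inhibitor of transcription, in the solutions of all groups. The RNA of each of the 3 groups was pooled and then split into 3 technical replicates. The standard errors and p-values below therefore cover the spread between splits of 1 pool and not the spread between animals. By the authors' account, the Moderate IOP pool was made from fewer retinas than the Control and Mild IOP pools. Both IOP groups were set against the same Control libraries, so these comparisons are not independent of each other.

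Depth derived from the confidence intervals of the deposited values lay between 4820000 and 8710000 fragments per library. The summed level of 8 RGC markers lay between 1431 and 1521 scaled FPKM in Control, between 1052 and 1301 in Mild IOP and between 2269 and 2421 in Moderate IOP, and 0 of the 8 were at 0 in all libraries. Taken singly, 6 of the 8 were lower and 2 higher in Mild IOP than in Control. In Moderate IOP, 7 were higher and 1 lower than in Control. The 6 amacrine cell markers summed to between 546 and 597 in Moderate IOP, against 766 to 814 in Control and 842 to 901 in Mild IOP. Taken singly, 3 of the 6 were lower and 3 higher in Moderate IOP than in Control, and likewise against Mild IOP. The 6 rod markers summed to between 483 and 551 in Control, and to between 330 and 372 over both IOP groups. The 3 lens crystallins summed to between 212 and 279 in Control, to at most 1.20 in Mild IOP and to 0 in Moderate IOP. Bipolar markers summed to between 49.4 and 65.0 in Control, 40.4 and 54.2 in Mild IOP and 74.6 and 86.9 in Moderate IOP, and Muller glia markers to between 36.5 and 42.1, 33.2 and 43.5, and 49.7 and 82.1. Both sums were higher in all Moderate IOP libraries than in all others. Taken singly, 3 of 5 bipolar markers and 3 of 4 tested Muller glia markers were higher in Moderate IOP than in Control. The counts against Mild IOP were the same, though not necessarily for the same markers. In each comparison the remaining 2 and 1 were lower. Horizontal cell markers summed to between 84.8 and 130.7 over the 9 libraries, and the cone, astrocyte, microglia, endothelium, pericyte and RPE sums were at most 19 in any library. In bulk RNA, fewer cells of a type and less RNA per cell cannot be told apart. The part of these differences in the results below was not tested. In Mild IOP replicate 2 the most abundant single gene took 20.5% of all FPKM, against 1.87% to 9.14% in the other 8 libraries.

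The integrated stress response starts with kinases that sense misfolded protein in the ER (PERK, encoded by Eif2ak3), amino acid shortage, double-stranded RNA or mitochondrial and heme stress. Each phosphorylates the alpha subunit of the initiation factor eIF2, which lowers general translation while letting ribosomes reach the reading frames of ATF4, CHOP, ATF5 and GADD34. ATF4 then switches on genes of amino acid supply and, when stress lasts, of cell death. The unfolded protein response has further arms in which IRE1 splices the Xbp1 transcript and ATF6 is cut in the Golgi, and both raise chaperones such as BiP. PERK, ATF4 and CHOP have been studied in RGCs after axon injury and under raised IOP. Much of this control acts on translation, splicing and protein cleavage, none of which gene-level FPKM measures.

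The transcripts form 3 tiers of abundance, as the plot of levels by library shows. In Control, Atf4 was the most abundant at 230.5 ± 27.5 scaled FPKM (mean ± SD, n = 3 technical replicates), higher than 98.2% of all symbols. Asns followed at 173 ± 3.71, Hspa5 at 172 ± 4.49, Ddit3 at 154 ± 14.7 and Xbp1 at 84.1 ± 7.38. Chac1 at 36.3 ± 6.36 and Ppp1r15a at 27.2 ± 6.16 formed a middle tier. Trib3 at 4.23 ± 1.93, Ddit4 at 2.80 ± 2.60 and Atf5 at 0.618 ± 0.538 were low. The Control ranges overlapped between the neighbours Asns and Hspa5, Chac1 and Ppp1r15a, Trib3 and Ddit4, and Ddit4 and Atf5, so these orders are within the spread of the libraries. FPKM is per transcript length, which allows the levels of different genes to be set side by side.

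**Figure D1:**
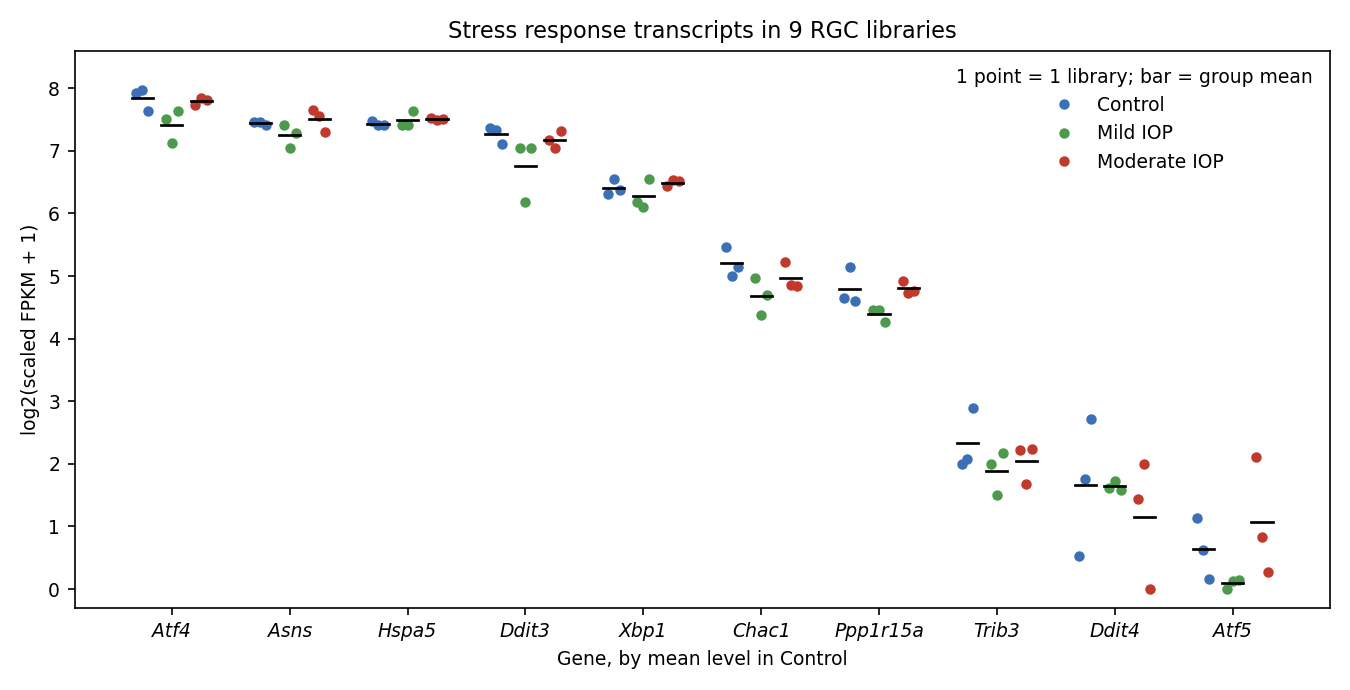
Level of each gene in each library, as log2(scaled FPKM + 1) on the vertical axis, with 1 point per library, colours for Control, Mild IOP and Moderate IOP and a bar at the group mean. The 7 genes on the left lay above 18 scaled FPKM in every library, and Trib3, Ddit4 and Atf5 lay between 0 and 6.45.

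The reference promoters of the 10 genes were searched for 3 elements known from these pathways, and 2 of them were found. The ER stress response element (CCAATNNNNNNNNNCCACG), read by ATF6 together with NF-Y, was present in 39 of 32851 mouse promoter windows (0.119%), and of these 10 genes in Hspa5. The core of the C/EBP-ATF composite element (TGATGNAA), to which ATF4 binds with a partner, was present in 1304 windows (3.97%), among them those of Chac1, Asns and Trib3. The element TGACGTGG, bound by XBP1, was in 222 windows (0.676%) and in 0 of the 10. Each window ran from 250 bases before the start of the gene to 50 after it in RefSeq, build GRCm38.p6 (the assembly also named mm10), and both strands were searched. None of the 10 genes held more than 1 of the elements, and a match is a description of the sequence, not proof of a bound site. The stretches around 3 of the matches are shown because Hspa5 stands for the chaperone arm and Asns and Chac1 for the ATF4 arm. They are on the gene's own strand, with the match in capitals.
Hspa5, chr2:34771985-34772083, plus strand: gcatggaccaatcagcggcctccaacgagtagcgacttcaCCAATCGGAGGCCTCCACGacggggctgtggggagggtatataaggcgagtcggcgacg
Asns, chr6:7693210-7693272, minus strand: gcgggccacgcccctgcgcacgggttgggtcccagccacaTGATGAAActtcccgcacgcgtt
Chac1, chr2:119351009-119351096, plus strand: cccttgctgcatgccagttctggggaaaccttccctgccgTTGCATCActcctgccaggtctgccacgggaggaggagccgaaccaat
The first base of the match lay 65 bases before the RefSeq start of the gene in Hspa5, 23 in Asns and 193 in Chac1. In Chac1 the element was on the strand opposite to the gene. The RefSeq start of Asns lies outside the locus printed for that gene below, which comes from the deposited values. The match in Trib3 lay inside the transcript and is not shown.

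The question for these genes was whether 2 weeks of raised IOP shifted their transcripts, and whether the Mild and Moderate groups differed. None of the 10 passed an FDR of 0.1 in any comparison (limma, Benjamini-Hochberg over 13043 genes). Over all genes, Mild IOP against Control called 0.00767% higher and 0.391% lower, Moderate IOP against Control 0.951% higher and 0.889% lower, and Moderate IOP against Mild IOP 7.03% higher and 3.12% lower. At these rates 0 of 10 lies near the background in each comparison. The plot of fold-changes with their intervals gives all 30 differences.

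**Figure D2:**
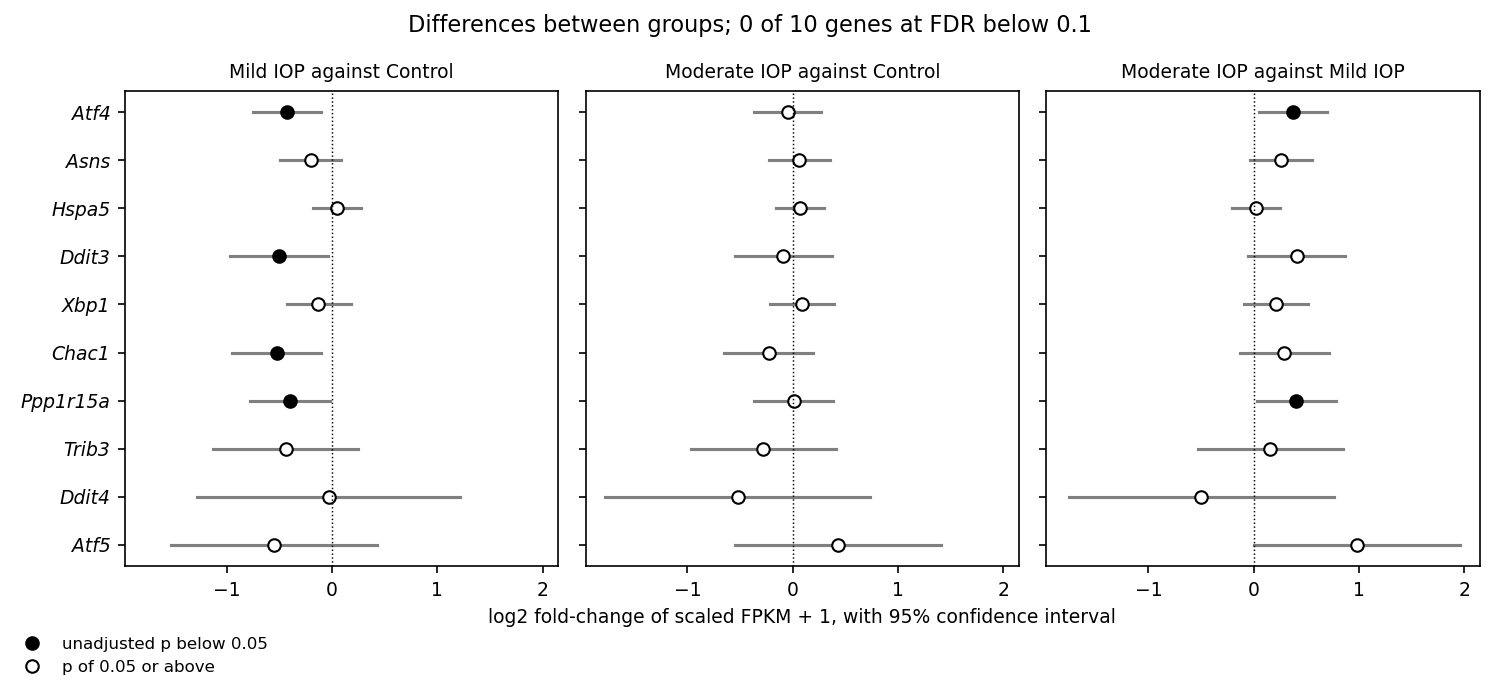
log2 fold-change of scaled FPKM + 1 (horizontal axis) with its 95% confidence interval for each gene in the 3 comparisons. Filled points had an unadjusted p below 0.05, which were Atf4, Chac1, Ddit3 and Ppp1r15a, all lower, in Mild IOP against Control, and Atf4 and Ppp1r15a, both higher, in Moderate IOP against Mild IOP.

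Short of that threshold, the Mild IOP libraries lay low. Of the 10 genes, 9 were below 0 in Mild IOP against Control, with a median log2 fold-change of −0.41, where the median of all genes tested was 0.006. An unadjusted p below 0.05 was reached by 4 of the 10, all lower, beside 7.0% of all genes tested. All 3 Mild IOP libraries lay below all 3 Control libraries for 5 of the 10, beside 9.13% of all genes. Atf5 was among the 5, on 0, 0.422 and 0.367 derived fragments in the Mild IOP libraries. It passed the filter on low values only with Moderate IOP replicate 1 included, so its separation carries little weight. For Moderate IOP against Control the median was −0.02, 5 genes lay above 0 and 5 below, and 0 of 10 reached an unadjusted p below 0.05. One of the 10 (Hspa5) did not overlap between these groups, beside 19.4% of all genes that did not overlap in either direction. Between Moderate IOP and Mild IOP the median was 0.28, 9 of 10 lay above 0, and 2 of 10 reached an unadjusted p below 0.05 in the higher direction, beside 12.9% of all genes. All Moderate IOP libraries lay above all Mild IOP libraries for 3 of the 10, Atf5 again among them, beside 14.5% of all genes. With no further scaling or with upper-quartile scaling, 2 of 10 (Atf4 and Chac1) reached an unadjusted p below 0.05 in Mild IOP against Control and 0 of 10 in Moderate IOP against Mild IOP. The first of these counts was 2 without Control replicate 1 and 1 without Control replicate 2, and the second was 1 without Moderate IOP replicate 1 (where Atf5 was not tested) or 2. Without Moderate IOP replicate 3 the second was 2, but for Asns and Atf5 in place of Atf4 and Ppp1r15a. Without the variance trend the counts were 2 (Atf4 and Chac1) and 1 (Atf5). With the variance of the 2 groups compared they were 2 (Atf4 and Chac1) and 2 (Atf4 and Ppp1r15a). These counts share pools and libraries and are a description.

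Much of the low position of Mild IOP came with 1 library. Mild IOP replicate 2 was the lowest of the 9 libraries for 7 of the 10 genes (Atf4, Ddit3, Hspa5, Xbp1, Trib3, Chac1 and Asns), and its median difference from the Control mean over the 10 was −0.46 on the log2 scale. The same median was −0.23 in Mild IOP replicate 1 and −0.19 in replicate 3, and lay between −0.06 and 0.04 in the 6 other libraries. Without Mild IOP replicate 2, 9 of 10 genes still lay below 0 against Control, but the median was −0.23 and 0 of 10 reached an unadjusted p below 0.05 in any comparison. The heat map of library differences shows this column.

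**Figure D3:**
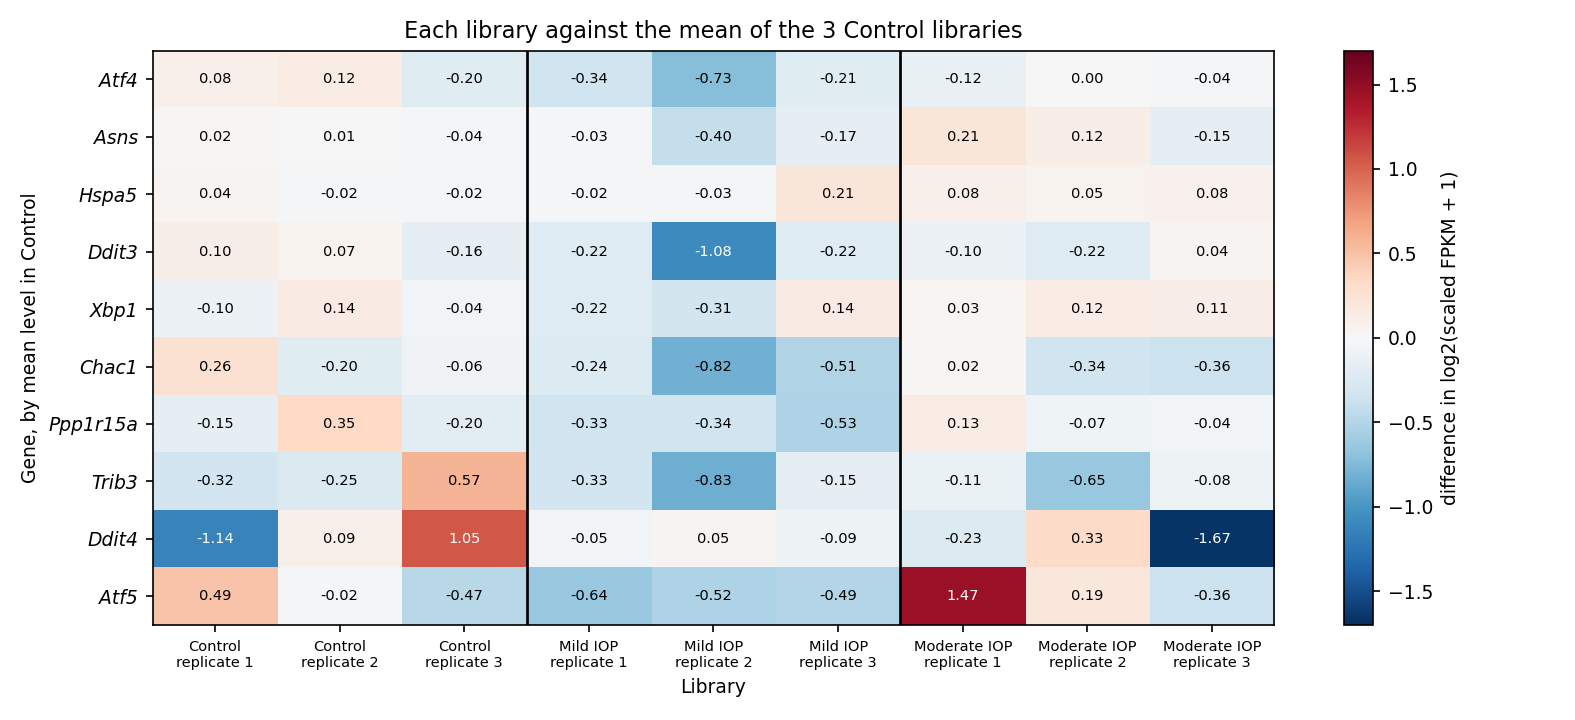
Difference of each library (columns) from the mean of the 3 Control libraries, in log2(scaled FPKM + 1), for each gene (rows), with blue below and red above. The column of Mild IOP replicate 2 holds the lowest value of the row for 7 genes, down to −1.08 for Ddit3, while Hspa5 stayed within −0.03 to 0.21 in all libraries.

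Atf4 (chr15:80255184-80257545, mm10) encodes the transcription factor at the centre of the integrated stress response. It measured 243, 249.8 and 199.0 scaled FPKM in Control replicates 1, 2 and 3, 181, 138 and 197.9 in Mild IOP, and 211, 229.6 and 223 in Moderate IOP. The highest Mild IOP library and the lowest Control library lay side by side at 197.9 and 199.0, so the groups were separate by a narrow margin, and Moderate IOP lay inside the Control range. The log2 fold-change was −0.43 in Mild IOP against Control (95% confidence interval −0.75 to −0.10, unadjusted p = 0.0141, FDR = 0.311, limma). It was −0.05 in Moderate IOP against Control (−0.37 to 0.27, FDR = 0.905) and 0.37 in Moderate IOP against Mild IOP (0.05 to 0.70, unadjusted p = 0.0268, FDR = 0.167). Without Mild IOP replicate 2 the first of these was −0.28 (unadjusted p = 0.0507, FDR = 0.761, limma). The interval for Moderate IOP against Control leaves room for a rise of at most 1.21-fold between the pools, and does not cover the spread between animals.

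Ddit3 (chr10:127290793-127296288) encodes CHOP, the pro-apoptotic factor downstream of ATF4. Its levels were 164, 160.4 and 137 in the Control replicates, 132, 71.9 and 132 in Mild IOP, and 143, 131 and 158 in Moderate IOP. Mild IOP replicate 2 stood alone at less than any other library, and the other Mild IOP libraries overlapped with Moderate IOP. Mild IOP against Control gave a log2 fold-change of −0.50 (−0.97 to −0.04, unadjusted p = 0.0347, FDR = 0.428, limma), and −0.22 without that library (FDR = 0.893). The Moderate IOP value against Control was −0.09 (−0.55 to 0.37, FDR = 0.875). The gene shares 68 bases with the end of Mars, whose mean was 58.8 scaled FPKM, and libraries without strand cannot tell the reads there apart.

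Ppp1r15a (chr7:45522917-45526268) encodes GADD34, the stress-induced subunit that directs phosphatase 1 to eIF2 alpha and so ends the response. It measured 24.1, 34.3 and 23.2 in the Control replicates, 21.1, 21.0 and 18.3 in Mild IOP, and 29.45, 25.4 and 26.0 in Moderate IOP. The 3 Mild IOP libraries were the 3 lowest of the 9, and Control replicate 2 was the highest. Against Control, the log2 fold-change in Mild IOP was −0.40 (−0.78 to −0.02, unadjusted p = 0.0399, FDR = 0.453, limma), and that of Moderate IOP against Mild IOP was 0.40 (0.03 to 0.78, unadjusted p = 0.0377, FDR = 0.199). Unlike Atf4 and Ddit3, its lowest library was Mild IOP replicate 3, and leaving out replicate 2 gave −0.44 against Control (FDR = 0.780). Moderate IOP differed from Control by 0.01 (−0.37 to 0.38).

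Chac1 (chr2:119351242-119354327) encodes an enzyme that breaks down glutathione and is a target of ATF4 and CHOP. It measured 43.3, 31.1 and 34.4 in the Control replicates, 30.3, 19.9 and 24.9 in Mild IOP, and 36.4, 28.1 and 27.7 in Moderate IOP. All Mild IOP libraries lay below all Control libraries, though the closest pair was 30.3 and 31.1, and Moderate IOP overlapped both. Its log2 fold-change in Mild IOP against Control was −0.52 (−0.95 to −0.10, unadjusted p = 0.0201, FDR = 0.364, limma), and −0.38 without Mild IOP replicate 2 (FDR = 0.849). Against Control, Moderate IOP gave −0.23 (−0.65 to 0.19), and its FDR of 0.615 was the smallest FDR of the 10 genes in that comparison.

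Asns (chr6:7675171-7693182), encoding asparagine synthetase, is an amino acid supply target of ATF4. It measured 176, 174.9 and 169 in the Control replicates, 170.4, 131 and 154 in Mild IOP, and 200.7, 188 and 156 in Moderate IOP. The Control libraries agreed closely and both IOP groups spread around them. Against Control, Mild IOP gave a log2 fold-change of −0.20 (−0.49 to 0.09, FDR = 0.678) and Moderate IOP one of 0.06 (−0.23 to 0.35, FDR = 0.869).

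Trib3 (chr2:152337425-152344060) encodes a pseudokinase induced by ATF4 and CHOP that inhibits AKT. It measured 3.01, 3.22 and 6.45 in the Control replicates, 2.99, 1.82 and 3.52 in Mild IOP, and 3.65, 2.205 and 3.74 in Moderate IOP. Control replicate 3 was the highest library and all groups overlapped. These values rest on 24.9 to 61.1 derived fragments, and the log2 fold-changes against Control had wide intervals, with −0.44 for Mild IOP (−1.13 to 0.25) and −0.28 for Moderate IOP (−0.97 to 0.41).

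Atf5 (chr7:44812256-44816658) encodes a factor that, like ATF4, is made when eIF2 is phosphorylated and acts in the mitochondrial stress response. Its levels were 1.19, 0.541 and 0.122 in the Control replicates, 0, 0.0886 and 0.107 in Mild IOP, and 3.30, 0.774 and 0.211 in Moderate IOP. All Mild IOP libraries lay below all others, but they held less than 1 derived fragment each and the highest library, Moderate IOP replicate 1, held 24.3. The log2 fold-change in Moderate IOP against Mild IOP was 0.98 (−0.00 to 1.96, unadjusted p = 0.0506, FDR = 0.231, limma), with a pseudocount larger than the Mild IOP levels. Atf5 was tested only because Moderate IOP replicate 1 took it past the filter on low values. That library is in the higher group of this comparison, so no conclusion can be drawn from the test. Atf5 shares 239 bases with Nup62, whose mean of 25.6 scaled FPKM was far above its own, and 289 bases with Nup62-il4i1, so some of its few fragments may belong to either.

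Ddit4 (chr10:59949675-59951770) encodes REDD1, which restrains the growth kinase mTORC1 and is also induced by hypoxia and glucocorticoids. It measured 0.441, 2.38 and 5.58 in the Control replicates, 2.07, 2.30 and 1.99 in Mild IOP, and 1.71, 2.99 and 0 in Moderate IOP. Control and Moderate IOP libraries together spanned the whole range and the Mild IOP libraries sat inside it. The values rest on 0 to 43.4 derived fragments per library, and in Control their coefficient of variation was 92.7%, where the derived fragments give a counting error of 29.0%. No difference from Control was detectable within this spread, with 95% intervals of −1.28 to 1.22 for Mild IOP and −1.78 to 0.73 for Moderate IOP on the log2 scale.

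Hspa5 (chr2:34772090-34776529) encodes BiP, the main HSP70 chaperone of the ER and the standard readout of the unfolded protein response. It measured 177, 169 and 169.8 in the Control replicates, 169.8, 169 and 199 in Mild IOP, and 182, 179 and 181 in Moderate IOP. All Moderate IOP libraries lay above all Control libraries, by little, and Mild IOP replicate 3 was the highest. The log2 fold-changes against Control were 0.05 for Mild IOP (−0.18 to 0.28, FDR = 0.920) and 0.07 for Moderate IOP (−0.16 to 0.30, FDR = 0.792). These intervals, the narrowest of the 10, leave room for a rise of at most 1.22-fold in Mild IOP and 1.23-fold in Moderate IOP between the pools.

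Xbp1 (chr11:5520641-5525993) encodes the factor activated when IRE1 splices its transcript, and the gene-level value adds the spliced and unspliced forms. It measured 78.3, 92.4 and 81.6 in the Control replicates, 72.0, 67.6 and 92.8 in Mild IOP, and 85.6, 91.5 and 90.4 in Moderate IOP. The groups overlapped in every pair. Against Control, Mild IOP gave −0.13 on the log2 scale (−0.43 to 0.18, FDR = 0.831) and Moderate IOP 0.09 (−0.22 to 0.39, FDR = 0.810).

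The libraries split from 1 pool often differed by more than counting would give. The coefficient of variation of Ddit3 in Mild IOP was 30.9%, where its derived fragments give a counting error of 5.25%, and that of Atf4 in Mild IOP was 17.8% against 3.15%. Hspa5 in Control (2.61% against 2.41%) and Asns in Control (2.14% against 2.17%) lay at the counting error. The derived number of fragments may be too low for abundant genes, since the deposited interval can hold more than counting error.

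Across the 9 libraries, the 3 genes whose log2 levels followed Atf4 most closely were Tagln3 (Pearson's r = 0.974), Tm2d3 (0.969) and Ube2s (0.968), of 8179 genes with a mean of at least 5 scaled FPKM. Of these genes, 87 had an r of at least 0.9 with Atf4. Ddit3 ranked 49 among them with an r of 0.919, and Hspa5 had an r of 0.219. For Ppp1r15a the closest were Thoc5 (0.955), Spint2 (0.942) and Sf3b2 (0.941), and 6 genes reached an r of 0.9. The points share pools, so these values describe the libraries only.

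Around these 10 genes, 13 lists of pathway genes hold 166 genes, of which 157 were tested. At an FDR below 0.1, 0 rose and 3 fell in Mild IOP against Control, 2 rose and 2 fell in Moderate IOP against Control, and 12 rose and 3 fell in Moderate IOP against Mild IOP. As shares of the 157 these were 0% and 1.91%, 1.27% and 1.27%, and 7.64% and 1.91%, beside 0.00767% and 0.391%, 0.951% and 0.889%, and 7.03% and 3.12% over all genes. The shares lay near the background in the comparison of the IOP groups, and the comparisons with Control rest on 3 and 4 calls. The plot of the pathway lists gives every gene.

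**Figure D4:**
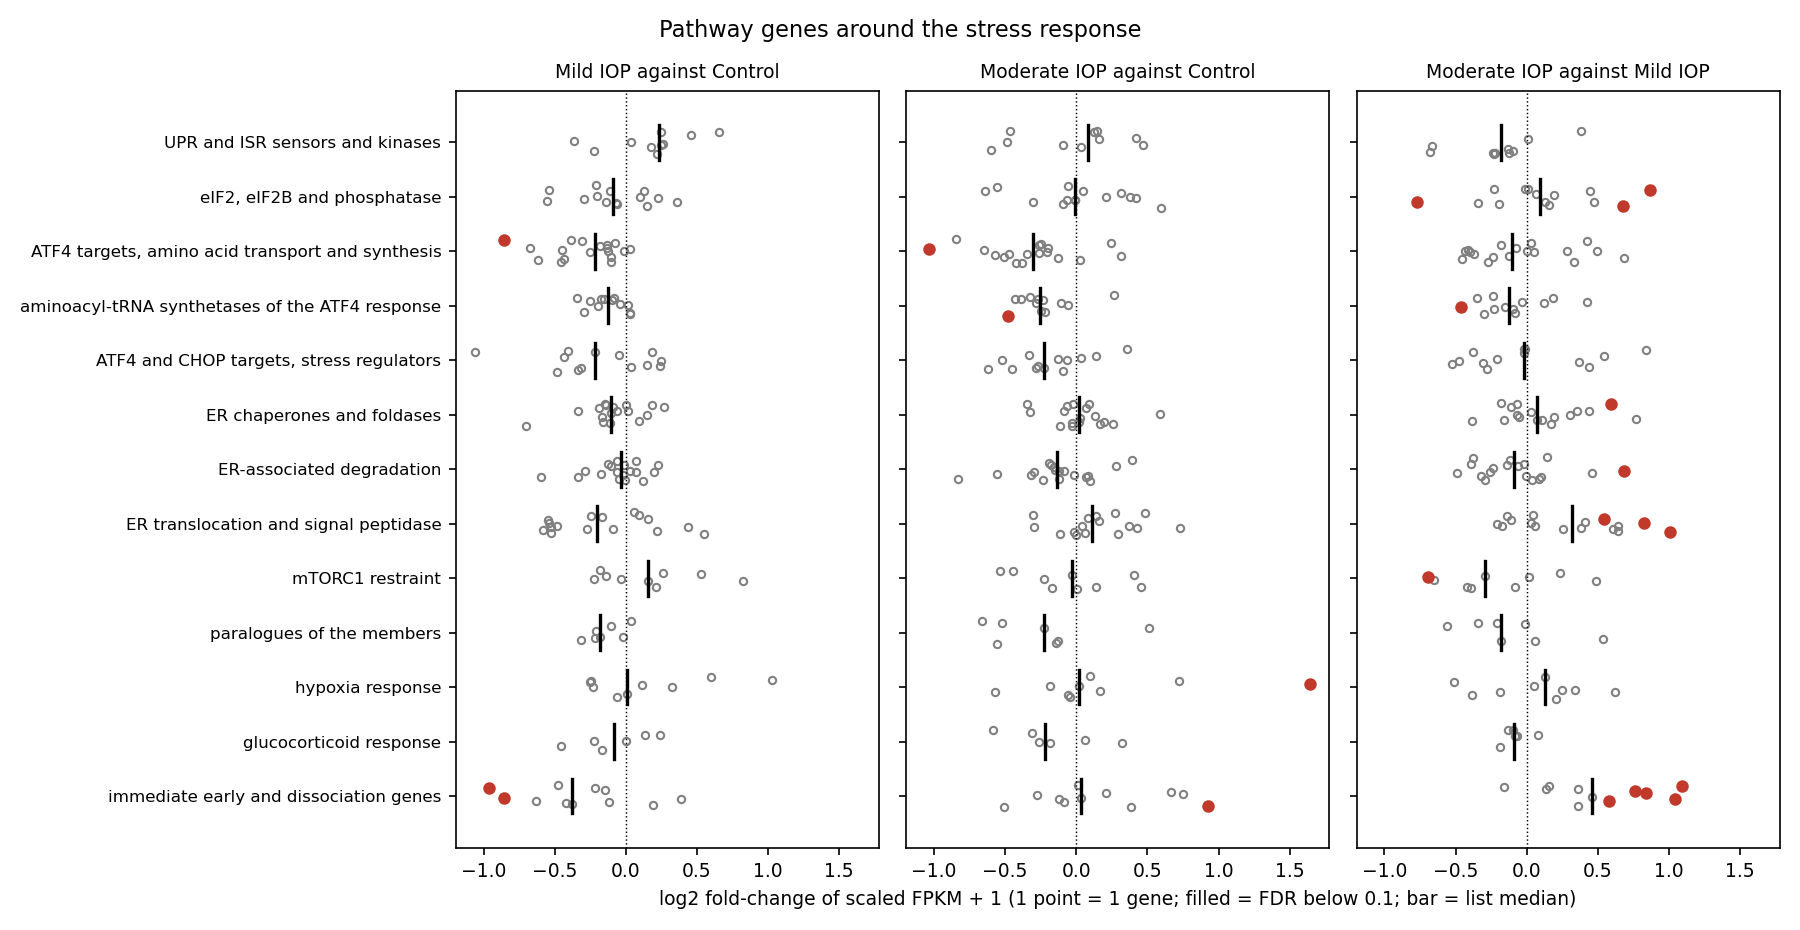
log2 fold-change of scaled FPKM + 1 (horizontal axis) of each tested gene of 13 pathway lists (rows) in the 3 comparisons, with filled points for an FDR below 0.1 and a bar at the list's median. Against Control, the median of the amino acid list lay at −0.22 for Mild IOP and −0.30 for Moderate IOP, and that of the immediate early list at −0.38 and 0.03.

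Upstream, 0 of 10 tested sensors and kinases were called in any comparison, and 3 of the list were too low to test. Its most abundant genes were Creb3, an ER-bound transcription factor, at 84.4 ± 14.2 scaled FPKM in Control (n = 3), and Eif2ak1, the heme-regulated kinase, at 23.1 ± 2.29. Their log2 fold-changes in Mild IOP against Control were −0.22 (FDR = 0.709) and 0.26 (FDR = 0.613). Of 14 genes of eIF2, its exchange factor eIF2B and its phosphatase, 0 were called against Control. In Moderate IOP against Mild IOP 2 rose and 1 fell, beside 7.03% and 3.12% of all genes. Eif2b2, a subunit of eIF2B, rose by a log2 fold-change of 0.87 (SE 0.15, FDR = 0.0105), from 25.9, 19.8 and 23.6 to 38.2, 46.8 and 43.65 scaled FPKM. Eif2s2, the beta subunit of eIF2, rose by 0.67 (FDR = 0.0314), a call lost without Mild IOP replicate 1 (FDR = 0.104) or 2 (FDR = 0.124). Eif2a, an initiation factor distinct from eIF2 despite its name, fell by 0.77 (FDR = 0.0798), a call lost when replicate 1 or 2 of any group was left out (FDR up to 0.283). The call for Eif2b2 was kept in all 19 alternatives, that for Eif2s2 in 17 and that for Eif2a in 11.

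Among the targets of ATF4 in amino acid transport and synthesis, 1 of 18 fell and 0 rose in each comparison with Control. Over all genes, 0.391% fell in Mild IOP and 0.889% in Moderate IOP. Phgdh, the first enzyme of serine synthesis, measured 44.1, 47.1 and 40.9 in Control, 24.5, 25.5 and 21.7 in Mild IOP, and 18.5, 20.0 and 24.7 in Moderate IOP. Every IOP library lay below every Control library. On the log2 scale Phgdh fell by 0.86 against Control in the Mild IOP pool (SE 0.15, FDR = 0.0632) and by 1.04 in the Moderate IOP pool (SE 0.15, FDR = 0.0120). The Moderate IOP call was kept in all 19 alternatives, and the Mild IOP call in 9 of 19. The latter was lost when any Control library, Mild IOP replicate 1 or 2, or Moderate IOP replicate 2 was left out (FDR up to 0.227). It was also lost under some changes of processing (FDR up to 0.253). Of the 18 genes, 17 lay below 0 for Mild IOP (median −0.22, beside 0.006 over all genes) and 15 for Moderate IOP (median −0.30, beside 0.004). The abundant transporter subunit Slc3a2 gave −0.13 and −0.20 (FDR = 0.784 and 0.425), and Psat1, which follows Phgdh in serine synthesis, gave −0.01 and −0.25 (FDR = 0.992 and 0.558).

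Of 12 aminoacyl-tRNA synthetases, which ATF4 also raises, 1 fell in Moderate IOP against Control and 1 in Moderate IOP against Mild IOP. Beside these stand 0.889% and 3.12% of all genes. Sars, which charges serine, measured 162, 157 and 153 in Control, 136, 133 and 127 in Mild IOP, and 109, 118 and 111 in Moderate IOP. The 3 groups did not overlap. It fell by 0.48 in Moderate IOP (SE 0.10, FDR = 0.0582), and this call was kept without Control replicate 3 or Mild IOP replicate 2 or 3 and lost without any other library (FDR up to 0.196). Mars, which charges methionine and overlaps Ddit3, fell by 0.46 in Moderate IOP against Mild IOP (FDR = 0.0798), a call kept without Control replicate 3 or Mild IOP replicate 3 and lost without any other library (FDR up to 0.277). The Sars and Mars calls were each kept in 10 of the 19 alternatives. Of the 12, 11 lay below 0 in Moderate IOP against Control, with a median of −0.26. Of 13 tested stress regulators downstream of ATF4 and CHOP, 0 were called in any comparison. The most abundant, the autophagy receptor Sqstm1, gave −0.05 for Mild IOP and −0.06 for Moderate IOP against Control at 641 ± 29.1 scaled FPKM in Control. Nupr1, a stress-induced chromatin factor, measured 146, 134 and 88.0 in Control, 127, 48.2 and 101 in Mild IOP, and 158, 128 and 179 in Moderate IOP, with Mild IOP replicate 2 again the lowest.

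Within the ER, 0 of 17 tested chaperones and foldases were called against Control. Calr and Pdia3, which fold glycoproteins and have the highest mean levels of the list, gave −0.03 and −0.07 in Moderate IOP against Control. Ppib, a prolyl isomerase, rose by 0.59 in Moderate IOP against Mild IOP (FDR = 0.0614), and was lost without Mild IOP replicate 2 or Moderate IOP replicate 1 or 2 (FDR up to 0.210). Of 18 genes of ER-associated degradation, Vimp, which anchors the VCP ATPase at the ER, rose by 0.68 in the same comparison (FDR = 0.0899), a call lost without Control replicate 2 or replicate 1 or 2 of either IOP group (FDR up to 0.296). Herpud1, an ATF6 and ATF4 target of that list, gave −0.06 for Mild IOP and −0.12 for Moderate IOP against Control. Vcp gave −0.01 and −0.15 (FDR = 0.985 and 0.601). The Ppib call was kept in 14 of the 19 alternatives and the Vimp call in 8.

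Of 16 genes that move proteins into the ER and remove signal peptides, 0 were called against Control. In Moderate IOP against Mild IOP 3 rose, beside 7.03% of all genes. Spcs1, a signal peptidase subunit, measured 92.6, 118 and 118 in Control, 67.2, 68.4 and 82.5 in Mild IOP, and 185, 145 and 117 in Moderate IOP. Mild IOP was below both other groups without overlap, and Moderate IOP overlapped Control. It rose by a log2 fold-change of 1.00 (SE 0.17, FDR = 0.0108), a call kept in all 19 alternatives. Sec61b, a subunit of the translocation channel, rose by 0.82 (FDR = 0.0306, and 0.106 without Moderate IOP replicate 2). Sec11c, a catalytic subunit of signal peptidase, rose by 0.55 (FDR = 0.0913). This call was kept when Mild IOP replicate 3 was left out and lost without any other library (FDR up to 0.221). It was kept in 6 of the 19 alternatives. The median of the list was −0.21 for Mild IOP against Control, 0.11 for Moderate IOP against Control and 0.32 for Moderate IOP against Mild IOP.

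Further lists bear on other inputs of the same genes and on their relatives. Of 9 tested genes that restrain mTORC1, as Ddit4 does, Tsc1 fell by 0.69 in Moderate IOP against Mild IOP (FDR = 0.0951), a call kept without Control replicate 3 and lost without any other library (FDR up to 0.303). The most abundant genes of that list, Nprl2 and Tbc1d7, gave −0.08 and 0.23 in the same comparison (FDR = 0.799 and 0.595). The Tsc1 call was kept in 8 of the 19 alternatives. Of 9 tested hypoxia genes, Adm, a vasodilator peptide, rose in Moderate IOP against Control. It was listed at 0 in 2 Control libraries and at 0.0984 in the other, at 0.345, 2.12 and 1.20 in Mild IOP and at 2.86, 1.39 and 2.64 in Moderate IOP (FDR = 0.0602), and the call was lost without any Control library or Moderate IOP replicate 1 or 3 (FDR up to 0.181). The Adm call was kept in 12 of the 18 alternatives that tested it. The glycolytic hypoxia targets Ldha and Pgk1 gave −0.04 and 0.02 in that comparison. Of 6 glucocorticoid response genes and 7 tested paralogues of the 10 genes, 0 were called in any comparison. Tsc22d3 measured 84.3 ± 2.25 in Control and 107 ± 18.2 in Moderate IOP (log2 fold-change 0.32, FDR = 0.336). Klf9, another glucocorticoid response gene, gave −0.18 in that comparison (FDR = 0.528). Of the 6 genes of this list, 4 lay below 0 there, with a median of −0.22. Hspa8, the cytosolic relative of BiP, gave −0.18 for Mild IOP and −0.13 for Moderate IOP against Control.

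Immediate early and dissociation genes respond quickly to handling or activity. Of 11 tested, 2 fell in Mild IOP against Control, 1 rose in Moderate IOP against Control and 5 rose in Moderate IOP against Mild IOP. The shares of all genes called in these directions were 0.391%, 0.951% and 7.03%. Egr1 measured 74.9, 67.9 and 72.4 in Control, 39.8, 41.3 and 36.6 in Mild IOP, and 58.6, 56.5 and 61.8 in Moderate IOP. The 3 groups were wholly separate, with Mild IOP lowest. Egr1 fell by 0.86 in Mild IOP against Control (SE 0.12, FDR = 0.0150) and rose by 0.58 in Moderate IOP against Mild IOP (FDR = 0.0186). Nr4a1 fell by 0.96 in Mild IOP against Control (FDR = 0.0632), a call lost without the same libraries as that of Phgdh (FDR up to 0.216). Junb rose by 0.93 in Moderate IOP against Control (SE 0.18, FDR = 0.0418, and 0.135 without Control replicate 2). Over the 19 alternatives, these calls against Control were kept in 18 for Egr1, 8 for Nr4a1 and 17 for Junb.

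Fos measured 92.8, 111 and 106 in Control, 74.6, 56.9 and 68.2 in Mild IOP, and 114, 113 and 130.2 in Moderate IOP, and rose by 0.84 between the IOP groups (SE 0.13, FDR = 0.00900). Junb rose by 1.04 in that comparison (FDR = 0.0103), Btg2 by 0.76 (FDR = 0.0375, and 0.138 without Mild IOP replicate 2) and Ier3 by 1.09 (FDR = 0.0428). Ier3 was lost without Mild IOP replicate 1 or 2 or Moderate IOP replicate 2 (FDR up to 0.168). Fos, like Atf4 and Ppp1r15a, thus lay lowest in Mild IOP, as did the RGC marker sum given above. Of the 8 markers in that sum, 2 were higher in Mild IOP than in Control. The part of Fos or of the RGC markers in the values of the 10 genes was not tested.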

How the data were processed

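RNA was measured in 9 libraries of RGCs, 3 technical replicates from 1 RNA pool for each of Control, Mild IOP and Moderate IOP, grouped by the sample labels. cDNA was primed with oligo-dT (SMART-seq v4) and sequenced without strand information. The authors aligned reads to mm10 and estimated FPKM per gene with cufflinks, and the deposited FPKM were used as given. The submitters' processing notes also name FastQC, Trimmomatic, TopHat2 and Cuffdiff. No counts accompany the FPKM, so the fragments behind a value were derived from its confidence interval, and depth from genes with 1 transcript of at least 2000 nt.

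FPKM were summed per symbol and scaled by median-of-ratios factors. Genes with a mean of at least 0.5 scaled FPKM and no failed estimate (2 symbols had one) were fitted as log2(scaled FPKM + 1) with limma 3.58.1 in R 4.3.3, all 9 libraries together, with a variance trend and Benjamini-Hochberg adjustment, called at an FDR below 0.1. Fold-changes are on the log2(scaled FPKM + 1) scale, which understates changes of low genes. The fit was tested on simulated data. Python 3.11.15 (pandas 2.3.3, numpy 2.4.6, matplotlib 3.10.9) served for tables and plots.

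The 10 genes and the pathway lists were chosen with earlier results of these data known. Named in each list were the called genes, up to 6 by size of change, or the 2 with the highest mean where fewer than 2 were called, and for the 2 of the 10 genes with the smallest FDR the 3 best correlated genes. Alternatives changed the scaling, pseudocount, filter, failed estimates, variance estimate, replicate block and the libraries entered. An exact permutation test of 3 against 3 libraries cannot go below 0.1 and was not used.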

Additional observations from a re-analysis of the deposited data

How the results depend on the processing

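The 10 genes gave 0 calls in each comparison in the 19 alternatives, 2 of which (a mean of at least 2 scaled FPKM, and leaving out Moderate IOP replicate 1) did not test Atf5, with the lowest FDR at 0.103 (Atf4, Moderate IOP against Mild IOP, without Mild IOP replicate 3). Of their values, 542 kept their direction and 22 reversed, each on a difference that was not called. For Mild IOP against Control, Ddit4 gave 0.01 with no further scaling, 0.03 with upper-quartile scaling, 0.17 with a pseudocount of 0.1 and −0.60 to 0.50 with 1 library left out, and Hspa5 gave −0.03 to 0.09 with 1 library left out. For Moderate IOP against Control, Ppp1r15a gave −0.03 with no further scaling and −0.01 with upper-quartile scaling, and leaving out 1 library gave −0.09 to 0.18 for Ppp1r15a, −0.15 to 0.01 for Atf4, −1.09 to 0.05 for Ddit4, −0.44 to 0.01 for Trib3 and −0.01 to 0.17 for Asns. For Moderate IOP against Mild IOP, Hspa5 gave −0.07 with no further scaling and −0.08 with upper-quartile scaling, and leaving out 1 library gave −0.02 to 0.10 for Hspa5, −0.92 to 0.08 for Ddit4 and −0.04 to 0.34 for Trib3. The cause of these reversals was not tested.

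Pathway genes called numbered 3 in Mild IOP against Control, and 0 without the variance trend, 1 with upper-quartile scaling, 1 with the variance of the 2 groups compared and 1 to 3 with a library left out. In Moderate IOP against Control they numbered 4, and 2 with the variance of the 2 groups compared and 1 to 4 with a library left out. In Moderate IOP against Mild IOP they numbered 15, and 6 to 18 with a library left out, the 6 without Mild IOP replicate 2. Named calls of pathway genes kept their side of the threshold in 314 instances and lost it in 103, and none turned direction. The cause was not tested.

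Replicate numbers did not pair the libraries. Deviations from the group means correlated between same-numbered libraries at −0.005 to 0.044 and between others at −0.051 to 0.042. With the replicate number as a block, 0 of the 10 genes were called in any comparison, and the pathway genes called were 1, 2 and 14.

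The spread covers splits of 1 pool per group and not animals. Trib3, Ddit4 and Atf5 rest on few fragments, and their intervals are wide.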
